A study of Mus musculus with 24 samples.

Results

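A set of 10 genes that define GABAergic interneurons or encode their peptides were followed in the prefrontal cortex (PFC) of mice after chronic social defeat and a glucocorticoid injection. They were Gad1, Gad2, Slc32a1, Pvalb, Sst, Vip, Npy, Cck, Lhx6 and Reln. The genes were taken by symbol, and all 10 were present among the 14074 genes of the deposited table of normalized counts. The table holds 24 RNA-seq libraries, each from 1 adult male C57BL/6 mouse, in 6 groups of 4. Control mice had no defeat sessions and were housed singly for several days before the experiment. The stressed mice met aggressive CD1 males daily for 30 days and were divided by their behaviour into a passive coping strategy (PS) and an active coping strategy (AS). Mice of each phenotype received saline or dexamethasone (DEX, 2 mg/kg), a synthetic agonist of the glucocorticoid receptor, and tissue was taken 6 h later. The PFC block included secondary motor, cingulate, orbital, prelimbic and infralimbic cortex, so each value is a sum over many cell types. Coping groups were formed by clustering of behaviour, so animals were not randomised to PS or AS.

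Cortical interneurons release GABA. Gad1 and Gad2 encode the 2 forms of glutamate decarboxylase that make GABA from glutamate, and Slc32a1 encodes the carrier that loads it into synaptic vesicles. Lhx6 is a LIM homeodomain transcription factor kept by interneurons from the medial ganglionic eminence, which include the cells that contain parvalbumin (Pvalb, a calcium buffer of fast-spiking cells) and those that contain somatostatin (Sst). Vip marks cells that mainly contact other interneurons, and neuropeptide Y (Npy), cholecystokinin (Cck) and the secreted glycoprotein reelin (Reln) mark partly overlapping classes. In cortex, Cck is also made by pyramidal neurons, so that its level is not an interneuron measure alone. In GRCm38, the protein-coding members not placed further on lay as Gad1 on chromosome 2 (70553072 to 70602014), Gad2 on chromosome 2 (22622205 to 22693874), Slc32a1 on chromosome 2 (158610767 to 158615748), Pvalb on chromosome 15 (78191114 to 78206400), Sst on chromosome 16 (23889573 to 23890958), Npy on chromosome 6 (49822710 to 49829507), Cck on chromosome 9 (121489824 to 121495694) and Reln on chromosome 5 (21884454 to 22344702). In bulk tissue, fewer cells of a type and less RNA per cell cannot be told apart.

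Per length of transcript, the 3 peptide genes Cck, Sst and Npy were the most abundant. On the TPM scale (counts divided by exon length and set to the same total in each of the 24 libraries), Cck reached 1124 ± 113 (SD), Sst 645 ± 81.3 and Npy 445 ± 85.5. Gad1 followed at 134 ± 29.2 TPM, Slc32a1 at 111 ± 16.6, Pvalb at 102 ± 26.3 and Gad2 at 95.7 ± 12.1. The spread of these 4 neighbours overlapped, so their order is not resolved. Vip stood at 62.0 ± 5.86 TPM, and Reln and Lhx6 were lowest at 14.5 ± 3.2 and 13.5 ± 2.33. All other levels are given as normalized counts, which are not divided by transcript length and serve only to compare libraries within a gene. The fewest reads behind a value were 305, for Lhx6. Within groups, Reln, Pvalb, Gad1 and Npy varied more than most genes of a like level: 97.1% to 98.3% of those genes had a smaller within-group SD. For Vip this share was 69.6% and for Gad2 71.8%.

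Depth ran from 21121869 to 59439645 reads on genes (median 24420130). Median depth with saline and DEX was 22869703 and 23492572 in controls, 24008146 and 24187702 in PS, and 34242532 and 37876626 in AS animals. Comparisons of AS with control animals therefore also compare libraries of unlike depth. The known DEX target Fkbp5 separated every DEX library (2931 to 4198 normalized counts) from every saline library (761 to 1088). A group of 6 libraries, 1 in each group, stood apart by markers of the olfactory bulb, a region next to the dissected block. The summed counts of 5 such genes (Th, Eomes, Doc2g, Cdhr1 and Trh) were 115 to 373 in 18 libraries. They reached 5070 in control mouse 117 (saline), 4011 in PS mouse 34 (DEX), 1819 in AS mouse 14 (saline), 1818 in PS mouse 2 (saline), 994 in control mouse 122 (DEX) and 667 in AS mouse 38 (DEX). AS mouse 44 (saline), AS mouse 60 (DEX) and PS mouse 34 stood apart in another way. Genes with short transcripts (exons under 1000 bases) stood above genes with long transcripts (over 8000 bases) by 0.45, 0.55 and 0.40 on the log2 scale, against -0.25 to 0.15 in the other 21 libraries. Both measures were examined after the values had been seen. Many results, but not all, are given with and without these libraries.

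The 3 genes of GABA synthesis and vesicular loading were not called in any of the 14 comparisons tested. Gad1 in saline-treated controls was 7519, 7095, 7757 and 14206 normalized counts, the last in mouse 117. Without that mouse the saline controls lay inside the range of the other groups, which was 6550 to 10388. Mean Gad1 was 9144 ± 3386 (SD, n = 4) in controls, 7868 ± 1391 in PS and 7502 ± 1155 in AS animals with saline, and 7663 ± 1032, 8303 ± 1529 and 7718 ± 402 with DEX. Over the 3 phenotypes, the DEX difference of Gad1 had a log2 fold change of -0.03 (95% interval -0.23 to 0.18), that of Gad2 0.02 (-0.09 to 0.14) and that of Slc32a1 -0.02 (-0.16 to 0.12). For Gad1 with saline the intervals were wider, at -0.52 to 0.18 for PS and -0.58 to 0.11 for AS against control. Differences inside these intervals were not detectable with 4 mice per group. In each of the 6 groups, the library with the highest Gad1 count was the one with the highest olfactory bulb sum. Gad1 was 8262 to 14206 in those 6 libraries and 6550 to 8431 in the other 18. Slc32a1 was 2382 to 3501 against 2093 to 2716, and Reln 2626 to 4157 against 1568 to 3081. Over 24 libraries, after centring on group means, the olfactory bulb sum and Gad1 had a Pearson r of 0.88 (permutation p = 0.000510, adjusted p = 0.0132 over 110 relations). For Slc32a1 r was 0.84 (permutation p = 0.00114, adjusted p = 0.0148) and for Reln 0.65 (permutation p = 0.00121, adjusted p = 0.0148). Without the 2 farthest libraries r was 0.76, 0.60 and 0.46. Among the 18 libraries, whose sums were only 115 to 373, r with Gad1 was -0.43 (permutation p = 0.0441). The part of olfactory bulb tissue in these levels was not tested.

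**Figure D1:**
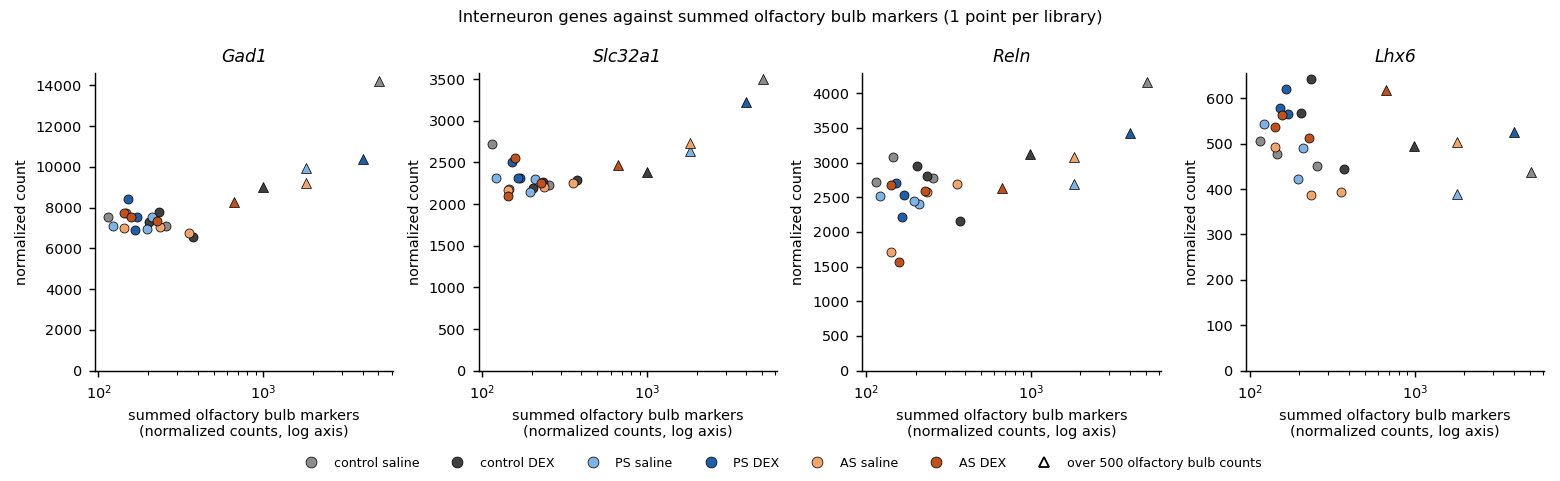
Normalized counts of Gad1, Slc32a1, Reln and Lhx6 (vertical axes) against the summed olfactory bulb markers (horizontal log axis), 1 point per library and coloured by group. The 6 triangles are the libraries with over 500 summed counts. Gad1 reaches 14206 in the library with the highest sum, while Lhx6 stays between 389 and 619 in these 6 libraries.

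Lhx6 was the only member that passed the test for DEX over the 3 phenotypes. With saline it was 506, 451, 477 and 437 normalized counts in controls, 389, 491, 422 and 542 in PS and 393, 503, 387 and 492 in AS animals. With DEX it was 444, 567, 642 and 495 in controls, 566, 525, 579 and 620 in PS and 619, 537, 563 and 512 in AS animals. In AS animals every DEX library stood above every saline library, whereas the groups overlapped in PS and control animals. The log2 fold change over the 3 phenotypes was 0.28 (SE 0.066, adjusted p = 0.00479), and Lhx6 was 1 of 10 members called, where 15.5% of all genes were called 7.46% higher and 8.01% lower. Lhx6 remained called in 35 of 35 alternative settings, with a log2 fold change of 0.25 to 0.31 and an adjusted p of 0.000742 to 0.0217. Taken by phenotype, the log2 fold change was 0.19 in controls (adjusted p = 0.488), 0.32 in PS (adjusted p = 0.149) and 0.34 in AS (SE 0.12, adjusted p = 0.0907). The 3 responses were not shown to differ, with an adjusted p of the interaction of 0.845 for PS against control and 0.758 for AS against control. The call in AS animals was close to the threshold of 0.1. It was lost in 16 of 36 settings, 12 of which left out 1 library: control mouse 107, 109, 108 or 122, PS mouse 28, 6 or 52, or AS mouse 8, 40, 38, 42 or 60 (adjusted p of up to 0.291). The other 4 were the fit of the AS groups alone (adjusted p = 0.157), library size as a covariate (0.137), the fit without the 6 olfactory bulb libraries (0.154) and the olfactory bulb covariate (0.104). Over all 6 groups, Lhx6 was also the only member called by the F-test (adjusted p = 0.0820), against 14.8% of all genes.

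The first annotated start of Lhx6 is on the minus strand of chromosome 2 (gene 36081953 to 36105408, GRCm38). The 250 bases before it are shown since Lhx6 was the member with the DEX difference. The capitals mark AGAACA, a single arm of the palindrome that the glucocorticoid receptor binds, 99 bases before the start. RefSeq sequence, GRCm38.p6, chr2:36105409-36105658, minus strand.
Lhx6: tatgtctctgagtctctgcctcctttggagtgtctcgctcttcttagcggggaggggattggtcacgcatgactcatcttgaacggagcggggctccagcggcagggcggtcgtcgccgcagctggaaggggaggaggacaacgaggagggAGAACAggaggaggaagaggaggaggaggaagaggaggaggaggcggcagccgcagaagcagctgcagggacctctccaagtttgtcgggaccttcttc
Searched on both strands, AGAACA was present in 16.1% of 32851 such windows, so its presence is common. The full palindrome, searched as GNACA, 3 unspecified bases and TGTNC, was present in 0.387% of the windows and in none of the 13 windows of the 10 members. A match of letters is a description and shows no binding.

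Markers of other cells differed with DEX as well. The 5 striatal projection neuron markers tested summed to 5085 to 5316 in PS saline and 5771 to 6006 in PS DEX libraries, and to 4951 to 5676 and 5842 to 7817 in AS libraries, with no overlap in either phenotype, while control libraries overlapped at 4699 to 6134 and 5865 to 6455. Drd2, Adora2a, Gpr6 and Isl1 were not among the 14074 genes with counts. Of the 5, 3 rose over the 3 phenotypes, where 7.46% of all genes were called higher. The most abundant of the 5, Ppp1r1b and Pde10a, went in opposite directions. Mean Ppp1r1b was higher with DEX in each phenotype (2151 to 2625 in controls, 2111 to 2391 in PS, 2265 to 2863 in AS). Mean Pde10a was lower in each (1853 to 1589, 1697 to 1680 and 1580 to 1525), with differences inside the SD in PS and AS. In AS animals 3 of 8 oligodendrocyte markers rose with DEX, and 4 of 8 endothelial and 4 of 7 mural cell markers fell, where 8.77% of all genes were called in either direction. The oligodendrocyte sums overlapped, at 20296 to 34725 with saline and 32622 to 47926 with DEX. The part of these cells in the Lhx6 result was not tested. Within groups, Lhx6 and the oligodendrocyte sum had a Pearson r of 0.61 (permutation p = 0.010, adjusted p = 0.0736 over 110 relations) and a Spearman rho of 0.64 (permutation p = 0.00680, adjusted p = 0.0619), with r = 0.73 when the 2 libraries farthest from the median were left out. Lhx6 and the olfactory bulb sum had an r of -0.34 over 24 libraries (permutation p = 0.102, adjusted p = 0.274) and -0.24 without the 2 farthest. In the 18 libraries with low olfactory bulb markers, a subset chosen after the values were seen, r was -0.74 (permutation p = 0.00728).

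**Figure D2:**
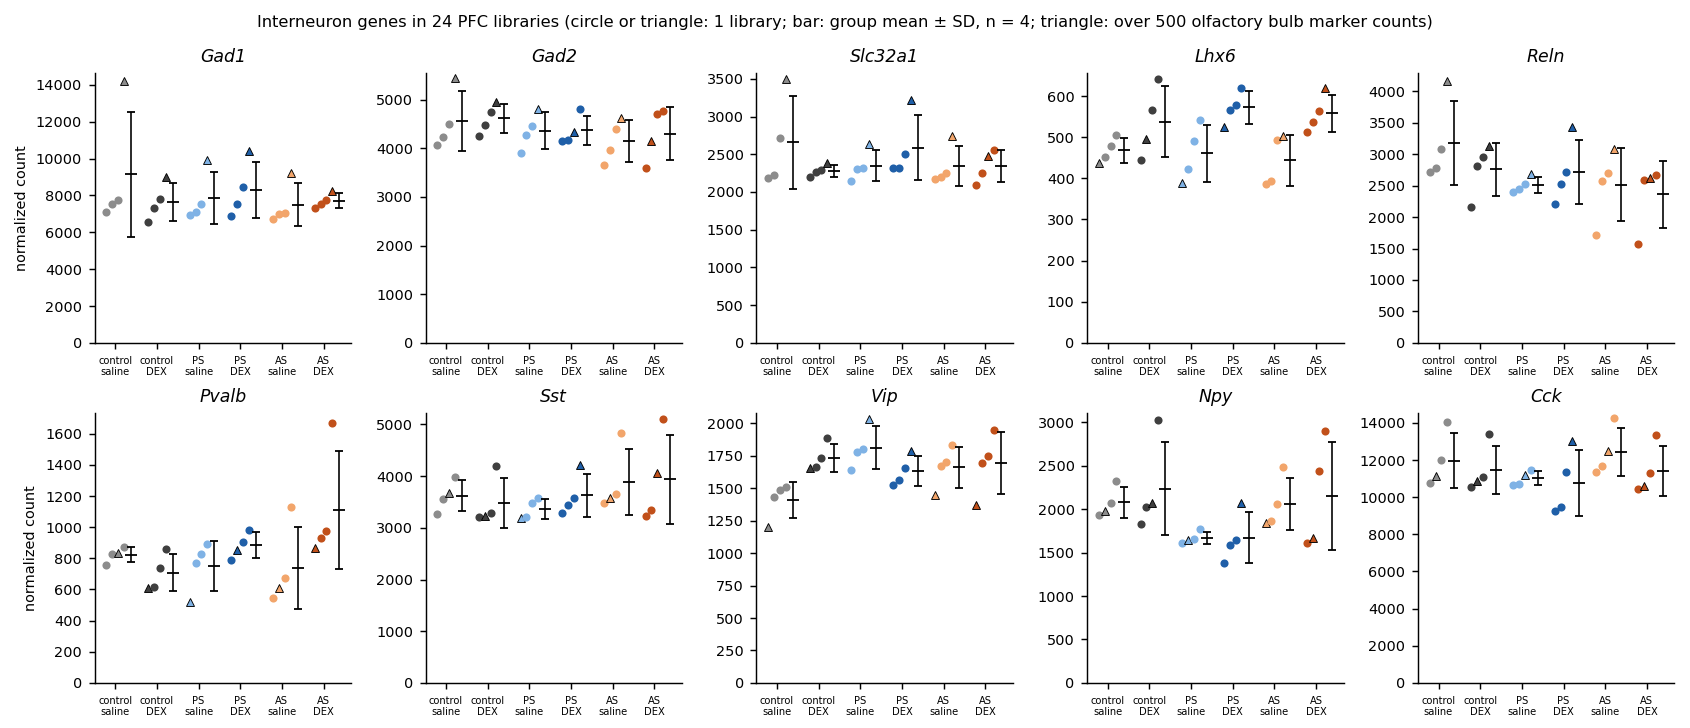
Normalized counts of the 10 genes (vertical axes, from 0) in the 6 groups, with 1 point per library and bars for the group mean ± SD (n = 4). Triangles are the 6 libraries with over 500 summed olfactory bulb counts. In AS animals the 4 Lhx6 values with DEX (512 to 619) lie above the 4 with saline (387 to 503).

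Pvalb rose with DEX in AS animals. It was 546, 610, 671 and 1128 normalized counts with saline and 867, 972, 1673 and 930 with DEX. The groups overlapped through AS mouse 44 (saline), which had 1128. The log2 fold change was 0.59 (SE 0.20, adjusted p = 0.0857), and with Lhx6 this made 2 of 10 members called, against 8.77% of all genes. The call was lost without AS mouse 8, 14 or 40 (saline) or AS mouse 42 or 60 (DEX). Without AS mouse 60, which had the highest Pvalb count, the log2 fold change was 0.38 (adjusted p = 0.233). It was also lost without the 6 olfactory bulb libraries (0.62, adjusted p = 0.146) when only the AS groups were fitted (0.59, adjusted p = 0.269), and with library size as a covariate (0.57, adjusted p = 0.126). In control animals Pvalb was 829, 756, 872 and 837 with saline and 737, 618, 863 and 610 with DEX, a log2 difference of -0.23 (adjusted p = 0.669). PS animals had 517, 889, 825 and 767 with saline and 985, 852, 908 and 790 with DEX (log2 0.26, adjusted p = 0.676). The DEX response of AS animals exceeded that of controls by 0.83 on the log2 scale (SE 0.28), which did not pass the test (adjusted p = 0.191). Without AS mouse 44 the same difference was 1.05 (adjusted p = 0.0430), and without control mouse 112 it was 0.93 (adjusted p = 0.0958). With the balance of short and long transcripts as a covariate it was 0.82 (adjusted p = 0.0726). AS mice 44 and 60, which had the highest Pvalb counts of their groups, are the libraries with the highest balance, and Pvalb has exons of 1041 bases. Pvalb and the balance had an r of 0.55 (permutation p = 0.0397, adjusted p = 0.156 over 110 relations; rho 0.30, permutation p = 0.195, adjusted p = 0.457), and r was -0.08 without these 2 mice. With DEX, every AS library (867 to 1673) stood above every control library (610 to 863), by 0.61 on the log2 scale (SE 0.20). That comparison did not pass limma (adjusted p = 0.183) or edgeR but passed DESeq2 (adjusted p = 0.0628), and it passed limma without AS mouse 44 (adjusted p = 0.0863). Here 7.09% of all genes had groups that did not overlap.

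Pvalb covaried with markers of myelinating cells within groups. Its Pearson r with the summed oligodendrocyte markers was 0.69 (permutation p = 0.000800, adjusted p = 0.0132 over 110 relations). The Spearman rho was 0.64 (permutation p = 0.00411, adjusted p = 0.0619), and r was 0.72 without the 2 farthest libraries. With the summed markers of oligodendrocyte precursors r was -0.74 (permutation p = 0.000690, adjusted p = 0.0132), rho was -0.74 (permutation p = 0.000270, adjusted p = 0.0269), and r without the 2 farthest libraries was -0.60. The points share their libraries and depth, and the part of the oligodendrocyte content in the Pvalb difference was not tested. The genes most like Pvalb over the 24 libraries were Tango2 (r = 0.90), Vamp1 (r = 0.89), which encodes a vesicle protein of fast-spiking synapses, and Igbp1 (r = 0.89).

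Vip was higher in PS than in control animals with saline. It was 1434, 1490, 1511 and 1203 normalized counts in controls and 2037, 1777, 1639 and 1804 in PS animals, so the groups did not overlap. The log2 fold change was 0.37 (SE 0.096, adjusted p = 0.0735). Vip was 1 of 10 members called, against 1.51% of all genes. AS animals with saline had 1670, 1452, 1701 and 1832, which overlapped with both other groups. Their log2 difference from control was 0.24 (95% interval 0.04 to 0.44, adjusted p = 0.361) and from PS -0.13 (-0.32 to 0.07). In the comparison of AS with control under saline 0 of 10 members were called by limma, edgeR or DESeq2 (0.156% of all genes by limma), with Vip alone at an unadjusted p under 0.05.

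Vip also rose with DEX in control animals. The DEX controls had 1888, 1731, 1665 and 1653, all above the saline controls. The log2 fold change was 0.30 (SE 0.096, adjusted p = 0.0771), and Vip was 1 of 10 members called, against 6.49% of all genes. PS animals with DEX had 1525, 1786, 1564 and 1659 (log2 -0.15 from PS saline, adjusted p = 0.574), and AS animals had 1375, 1749, 1693 and 1953 (log2 0.02, adjusted p = 0.955). The DEX response in PS was 0.45 lower than in controls on the log2 scale (95% interval -0.73 to -0.17), and the difference did not pass the test over all genes (adjusted p = 0.352). Both Vip calls share the 4 saline controls, of which mouse 117 was lowest and was also the library with the highest olfactory bulb sum. Without control mouse 117 the log2 fold change was 0.29 for PS against control (adjusted p = 0.195) and 0.23 for DEX in controls (adjusted p = 0.259). The call for PS was also lost without control mouse 106 or 107 or PS mouse 2, 28 or 68 (adjusted p of 0.120 to 0.295), and without the 6 olfactory bulb libraries (log2 0.23, adjusted p = 0.355). PS mouse 2, the highest PS library for Vip, had the highest olfactory bulb sum of its group. The call for DEX in controls was lost without control mouse 106, 101, 108 or 122 (adjusted p of 0.105 to 0.223), but held without the 6 libraries (log2 0.25, adjusted p = 0.0783).

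Vip lies on the plus strand of chromosome 10 (5639218 to 5647617, GRCm38). The 250 bases before its start are shown because Vip was the member called in 2 comparisons with the saline controls. The capitals mark TGACGTC, a site of the cAMP response element kind, 79 bases before the start, and 3 copies of the TATA motif TATAAA, of which 1 lies 30 bases before the start. RefSeq sequence, GRCm38.p6, chr10:5638968-5639217, plus strand.
Vip: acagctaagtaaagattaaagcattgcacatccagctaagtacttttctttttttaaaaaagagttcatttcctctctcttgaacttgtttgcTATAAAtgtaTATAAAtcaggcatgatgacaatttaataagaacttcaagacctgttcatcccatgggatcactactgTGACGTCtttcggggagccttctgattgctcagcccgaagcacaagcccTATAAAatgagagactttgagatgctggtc
TGACGTC was present on either strand in 2.78% of 32851 windows, and among the members in those of Vip and Sst. In Sst it was part of the full palindrome TGACGTCA, which 1.55% of windows hold. TATAAA was present in 12.4% of windows.

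**Figure D3:**
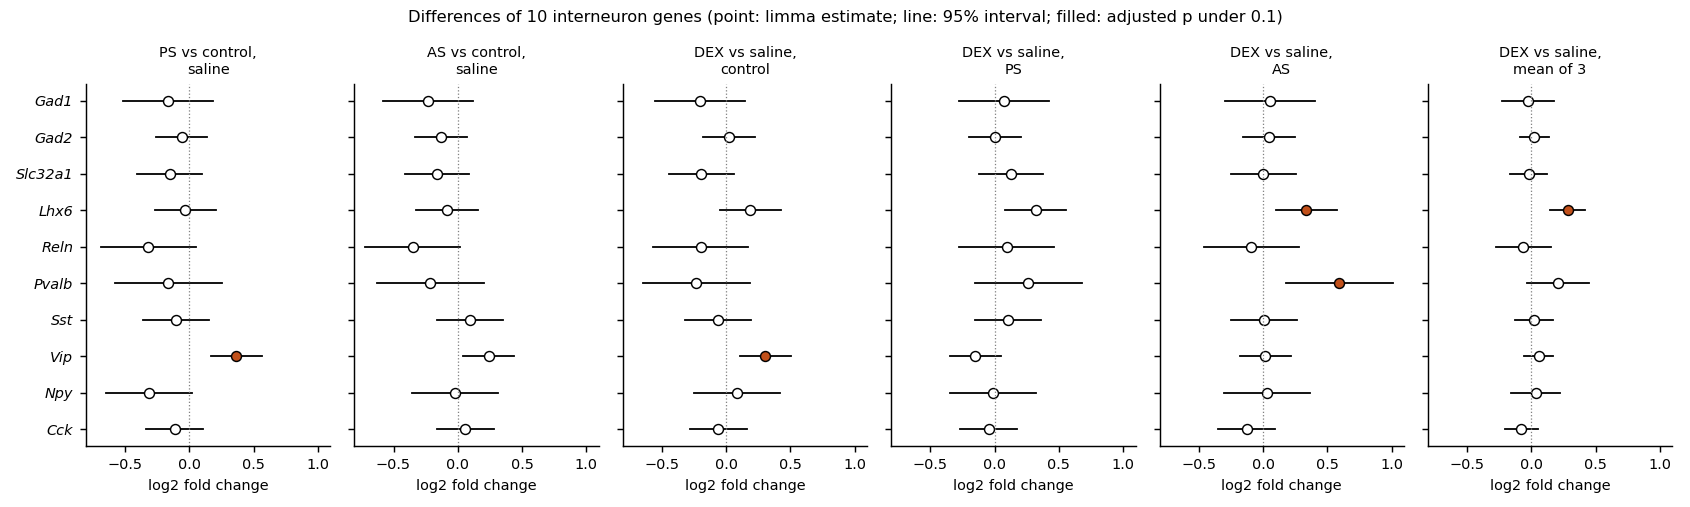
Log2 fold changes of the 10 genes (horizontal axes) in 6 comparisons, with lines for the 95% interval. Filled points passed an adjusted p under 0.1: Vip in PS against control (0.37) and in controls with DEX (0.30), Pvalb (0.59) and Lhx6 (0.34) in AS with DEX, and Lhx6 over the 3 phenotypes (0.28).

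Npy was low in PS animals without passing the test. It was 2327, 1929, 2074 and 1981 normalized counts in saline controls, 1646, 1766, 1607 and 1662 in PS and 1866, 1839, 2055 and 2483 in AS animals with saline. Every PS library stood below every control and every AS library. The log2 difference from control was -0.31 (SE 0.16, adjusted p = 0.421), and AS exceeded PS by 0.29 (adjusted p = 0.934). Groups did not overlap for 11.3% of all genes in the first comparison and for 5.22% in the second. In the first, 3 of 10 members did not overlap: Vip was higher and Npy and Reln were lower in PS. With DEX, PS animals had 1384, 2074, 1587 and 1646 and controls 3023, 2020, 1824 and 2076, a log2 difference of -0.41 (SE 0.16, adjusted p = 0.275) with overlapping groups. The spread within the other groups was wide, from 1610 to 2902 in AS animals with DEX. When only the 2 saline groups were fitted, Npy passed in PS against control (adjusted p = 0.0379). With the balance of short and long transcripts as a covariate, it passed with saline (log2 -0.42, adjusted p = 0.0405) and with DEX (log2 -0.55, adjusted p = 0.0405).

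Reln and Sst did not pass in any comparison. Reln was 2723, 2773, 3081 and 4157 in saline controls and 2691, 2398, 2447 and 2520 in PS animals, with all PS values below all controls and a log2 difference of -0.32 (SE 0.18, adjusted p = 0.459). AS animals with saline had 2697, 3084, 2573 and 1716, a log2 difference from control of -0.35 (SE 0.18, adjusted p = 0.474). The extremes were the libraries that stood apart: control mouse 117 was highest at 4157, and AS mice 44 and 60 were lowest at 1716 and 1568. Sst was 3619 ± 299 (SD, n = 4) in controls, 3359 ± 193 in PS and 3885 ± 640 in AS animals with saline, and 3482 ± 478, 3628 ± 412 and 3937 ± 867 with DEX. AS mice 44 and 60 were highest at 4838 and 5113. With the short and long transcript covariate, Sst passed in PS against control with saline (log2 -0.21, adjusted p = 0.0495). Cck lay between 9282 and 14262 in all libraries, with a DEX difference over the 3 phenotypes of -0.08 (95% interval -0.20 to 0.05).

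In 9 of the 14 comparisons no member was called by limma. AS against PS gave 0 of 10 members with saline and 0 of 10 with DEX by limma, edgeR and DESeq2, with 0 members at an unadjusted p under 0.05. Over all genes limma also called 0% in both, while 671 and 580 genes had an unadjusted p under 0.05, edgeR called 0 in each and DESeq2 11 and 4. For DEX in PS animals 0 members were called by the 3 tools (5.36% of all genes by limma), with Lhx6 alone at an unadjusted p under 0.05. For PS against control with DEX it was also 0 by the 3 tools (0.199% of all genes), with Npy alone at that level. AS against control with DEX gave 0 by limma and edgeR and 1, Pvalb, by DESeq2 (0.867% of all genes by limma). The interactions gave 0 members by the 3 tools for PS against control (0% of all genes by limma and edgeR, 23 genes by DESeq2), 0 for AS against control (0.348%) and 0 for AS against PS (0%). Vip had an unadjusted p under 0.05 in the first, Vip and Pvalb in the second and no member in the third. Groups did not overlap for Vip alone with DEX in controls (10.1% of all genes) and for Lhx6 alone with DEX in AS animals (9.02%). Members whose groups did not overlap numbered 0 of 10 for AS against control with saline (6.51% of all genes), DEX in PS (10.1%), PS against control with DEX (7.26%) and AS against PS with DEX (1.71%).

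Members also covaried across libraries. Of 45 pairs, 8 passed a permutation test within groups at an adjusted p under 0.05, 7 of them positive. The share of all gene pairs that would pass was not computed, so this count is not set against a background. Npy and Cck had a Pearson r of 0.79 (permutation p = 0.000170, adjusted p = 0.00337) and a Spearman rho of 0.61 (permutation p = 0.00568, adjusted p = 0.0416), and r without the 2 farthest libraries was 0.68. Sst and Cck had an r of 0.77 (permutation p = 0.000510, adjusted p = 0.00459) and a rho of 0.58 (permutation p = 0.00956, adjusted p = 0.0478), with r = 0.67 without the 2 farthest. Gad2 and Reln had an r of 0.80 (permutation p = 0.000260, adjusted p = 0.00337) and a rho of 0.79 (permutation p = 5.0e-05, adjusted p = 0.00225), with r = 0.65 without the 2 farthest. Gad2 and Sst went in opposite directions, with r = -0.65 (permutation p = 0.00334, adjusted p = 0.0215) and rho = -0.63 (permutation p = 0.00630, adjusted p = 0.0416), and r = -0.67 without the 2 farthest. Gad1 and Slc32a1 had an r of 0.85 (permutation p = 0.000300, adjusted p = 0.00337) and a rho of 0.68 (permutation p = 0.000710, adjusted p = 0.00956), with r = 0.64 without the 2 farthest. In the 18 libraries with low olfactory bulb markers their r was 0.13 (permutation p = 0.573), so this relation rested on the 6 others. The other pairs that passed were Sst with Npy (r = 0.70), Gad1 with Reln (r = 0.66) and Gad1 with Gad2 (r = 0.66), and the last 2 had an r of 0.33 and 0.39 in the 18 libraries. For Sst with Npy, rho was 0.48 (permutation p = 0.0785, adjusted p = 0.236), and r was 0.49 without the 2 farthest libraries.

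The 3 peptide genes with exons of 566 to 1305 bases covaried with the balance of short and long transcripts. For Sst (721 bases), r was 0.90 (permutation p = 0.000230, adjusted p = 0.0132 over 110 relations) and rho 0.78 (permutation p = 0.000490, adjusted p = 0.0269), and r was 0.79 without the 2 farthest libraries. For Cck, r was 0.80 (permutation p = 0.000740, adjusted p = 0.0132), rho 0.70 (permutation p = 0.00109, adjusted p = 0.0300) and r without the 2 farthest 0.73. For Npy, r was 0.72 (permutation p = 0.00320, adjusted p = 0.0293), rho 0.46 (permutation p = 0.0678, adjusted p = 0.240) and r without the 2 farthest 0.53. Reln, with exons of 23738 bases, had an r of -0.46 over 24 libraries (permutation p = 0.0836, adjusted p = 0.249; rho -0.34, permutation p = 0.162, adjusted p = 0.405). In the 18 libraries with low olfactory bulb markers it was -0.96 (permutation p = 0.000650), but over 24 libraries r turned to 0.18 without AS mice 44 and 60. Npy and Cck also covaried with the summed markers of microglia. For Npy, r was 0.80 (permutation p = 0.000430, adjusted p = 0.0132), rho 0.71 (permutation p = 0.00217, adjusted p = 0.0398) and r without the 2 farthest libraries 0.74. For Cck, r was 0.67 (permutation p = 0.00141, adjusted p = 0.0155), rho 0.60 (permutation p = 0.00731, adjusted p = 0.0619) and r without the 2 farthest 0.67. The part of microglia in these levels was not tested. The part of the transcript balance in the differences between groups was not tested beyond the covariate fit.

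**Figure D4:**
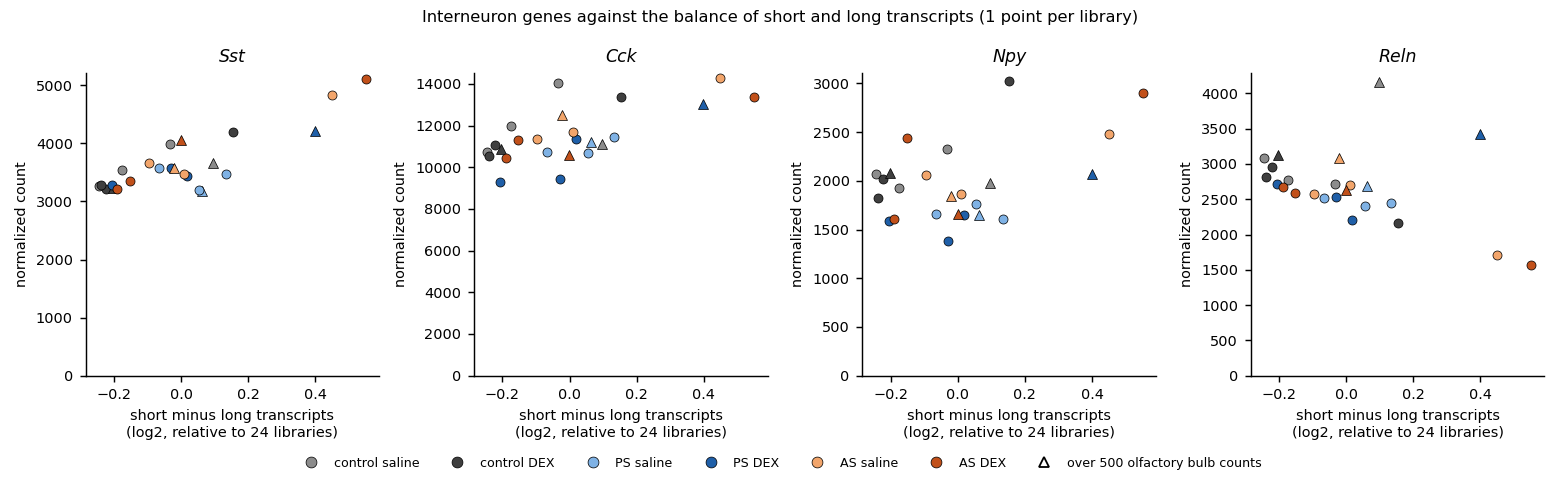
Normalized counts of Sst, Cck, Npy and Reln (vertical axes) against the balance of short and long transcripts in each library (horizontal axis, log2), 1 point per library and coloured by group. AS mice 44 (0.45) and 60 (0.55) lie at the right, with the highest Sst counts (4838 and 5113) and the lowest Reln counts (1716 and 1568).

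Among the receptors of the member peptides, 2 of 9 fell with DEX over the 3 phenotypes and none rose, where 8.01% of all genes were called lower and 7.46% higher. They were Cckbr, the main cholecystokinin receptor of the cortex, and Npy1r, a receptor of neuropeptide Y. The median log2 fold change of the 9 was -0.09, against -0.002 over all genes. Cckbr was 2343, 2317, 2170 and 2274 in saline controls and 1813, 1619, 1441 and 1895 in DEX controls, a log2 fold change of -0.44 (SE 0.076, adjusted p = 0.000778). In AS animals it was 2389, 2398, 2397 and 2198 with saline and 2161, 1708, 1975 and 1716 with DEX (log2 -0.32, adjusted p = 0.0124). Neither pair of groups overlapped, and over the 3 phenotypes the log2 fold change was -0.31 (SE 0.044, adjusted p = 1.4e-05), called in 35 of 35 alternatives. Npy1r was 1102, 968, 1028 and 1035 in PS saline and 822, 712, 775 and 760 in PS DEX libraries, which did not overlap (log2 -0.43, adjusted p = 0.0219). Over the 3 phenotypes it fell by 0.26 on the log2 scale (adjusted p = 0.00587), called in 35 of 35 alternatives. Sstr2, a somatostatin receptor, fell in DEX controls (log2 -0.89, adjusted p = 0.0698), where the 2 groups did not overlap. That call was lost in 7 of 36 settings, among them edgeR, the fit without the 6 olfactory bulb libraries, and leaving out control mouse 106, 107, 117, 101 or 122. Cck and Npy themselves were not called with DEX.

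Most genes of other interneuron subclasses did not pass. With DEX over the 3 phenotypes 2 of 21 rose, Crispld2 and Syt2, and the median of the 21 was -0.001. This share is near the 7.46% of all genes called higher. Crispld2, a secreted protein, was 42 to 89 in saline controls and 120 to 178 in DEX controls (log2 1.19, SE 0.25, adjusted p = 0.00399), and rose by 0.87 over the 3 phenotypes (adjusted p = 9.6e-05). Syt2 rose by 0.39 (adjusted p = 0.0730), a call lost in 9 of 35 settings, among them the fit without the 6 olfactory bulb libraries. Syt2, the fast calcium sensor of parvalbumin cell terminals, was 316, 550, 533 and 673 in AS saline and 999, 1041, 1195 and 959 in AS DEX libraries. The groups did not overlap and the log2 fold change was 1.06 (SE 0.24, adjusted p = 0.00870), called in 36 of 36 alternatives. In controls Syt2 was 884, 725, 1014 and 891 with saline and 457, 686, 945 and 512 with DEX, and the response of AS exceeded that of controls by 1.54 on the log2 scale (SE 0.34, adjusted p = 0.0785). This difference was lost in 15 of 36 settings, among them library size as a covariate and the fit without the 6 olfactory bulb libraries. The others included leaving out control mouse 106, 107, 109, 117, 101, 108 or 122, PS mouse 6, or AS mouse 8, 40, 38 or 42. Pvalb in the same comparison gave 0.83 and did not pass. Calb1 rose in DEX controls by 0.30 (adjusted p = 0.0983, kept in 14 of 36 settings).

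Of 11 peptide processing and granule genes, 1 passed with DEX in AS animals, a share near the 8.77% of all genes. Chgb, a granin of dense-core granules, was 11277, 11359, 10374 and 10680 with saline and 13928, 12759, 13191 and 14051 with DEX, with no overlap (log2 0.30, SE 0.060, adjusted p = 0.00241). Over the 3 phenotypes it rose by 0.11 (adjusted p = 0.0358). It was higher in AS than in control animals with DEX (log2 0.27, adjusted p = 0.0451). That call was lost without control mouse 101, 108 or 122 or AS mouse 38, 42 or 72. It was also lost when only the groups compared were fitted, with library size as a covariate and without the 6 olfactory bulb libraries. The DEX response of Chgb differed between AS and controls by 0.42 (SE 0.084, adjusted p = 0.0711). This difference in response was lost in 13 of 36 settings, among them library size as a covariate and the fit without the 6 olfactory bulb libraries. The others included leaving out control mouse 106, 107, 117, 101, 108 or 122 or AS mouse 8, 40, 38 or 42.

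**Figure D5:**
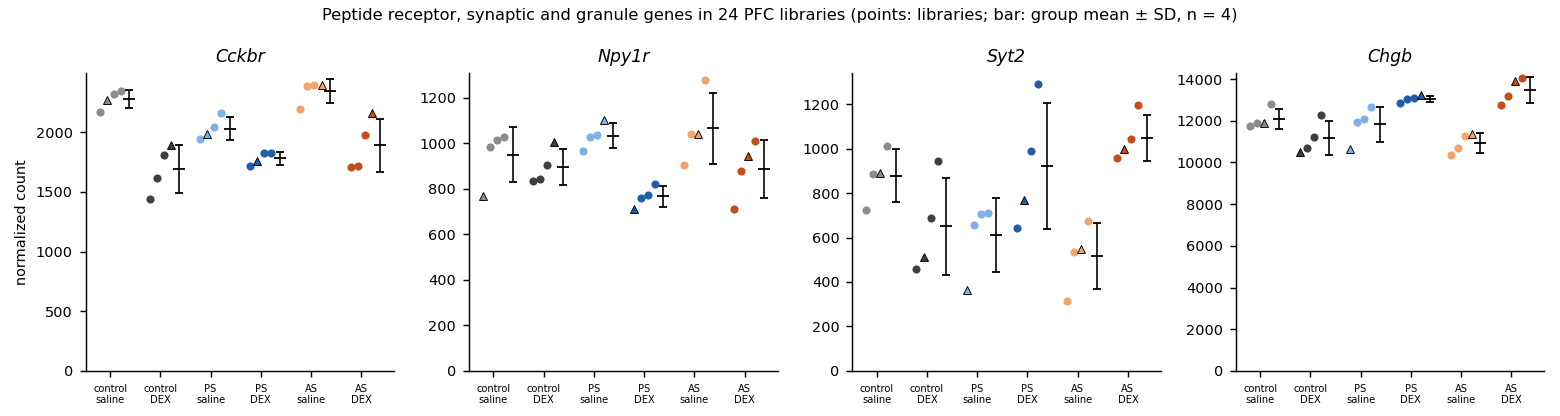
Normalized counts of Cckbr, Npy1r, Syt2 and Chgb (vertical axes, from 0) in the 6 groups, with 1 point per library and bars for the group mean ± SD (n = 4). Triangles are the 6 libraries with over 500 summed olfactory bulb counts. Syt2 (316 to 673 with saline, 959 to 1195 with DEX) and Chgb (10374 to 11359 and 12759 to 14051) do not overlap in AS animals.

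Some genes of GABA uptake, breakdown and precursor supply were also called with DEX over the 3 phenotypes. Of all genes, 15.5% were called there, 7.46% higher and 8.01% lower. Up to 3 genes per list and comparison are named here, so the share of each list was not set against these values. Slc38a3, a glutamine transporter, fell by 0.38 on the log2 scale (SE 0.062, adjusted p = 0.000109), with 2626, 2552, 2779 and 2396 in AS saline and 1690, 1407, 1915 and 1811 in AS DEX libraries. Glul, glutamine synthetase of astrocytes, rose by 0.16 (adjusted p = 0.0360). In controls with DEX, 6.49% of all genes were called. There, Glul rose by 0.35 (adjusted p = 0.0167) and Slc6a13, a GABA transporter of the meninges, by 0.88 (adjusted p = 0.0937, kept in 19 of 36 settings). Of 8 reelin receptors and transducers, Lrp8, a reelin receptor, fell by 0.21 over the 3 phenotypes (adjusted p = 0.00469). The adaptors Crkl and Dab1 rose by 0.16 (adjusted p = 0.0251) and 0.13 (adjusted p = 0.0760), the latter in 21 of 35 settings. Of 5 genes of the perineuronal net, the matrix that wraps parvalbumin cells, Ncan fell by 0.18 (adjusted p = 0.0494) and Tnr rose by 0.25 (adjusted p = 0.0908, kept in 16 of 35 settings) over the 3 phenotypes. Hapln4 fell by 0.24 in DEX controls (adjusted p = 0.0702) and Bcan by 0.28 in AS animals with DEX (adjusted p = 0.0630), in 29 and 30 of 36 settings. For DEX in AS animals, 8.77% of all genes were called. Without the 6 olfactory bulb libraries the calls over the 3 phenotypes of Glul, Crkl, Dab1, Ncan, Tnr and Chgb were lost. So were those of Glul, Slc6a13 and Calb1 in controls with DEX, Npy1r in PS and Bcan in AS animals with DEX. No gene of the 7 lists was called in PS or AS against control with saline, or in AS against PS.

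The genes whose counts ran most like each member over 24 libraries, after centring on group means, are given as a description. For Slc32a1 they included the interneuron factors Dlx2 (r = 0.91) and Sp9 (r = 0.91), with 0.65 and 0.63 in the 18 libraries with low olfactory bulb markers. For Gad1 they were Syt6 (r = 0.95), Lgr5 (r = 0.95) and Pacsin2 (r = 0.94), and these were 0.58, 0.44 and 0.57 in the 18. For Lhx6 they were Rassf5 (r = 0.86), Nefl (r = 0.85), a neurofilament gene, and Sulf2 (r = 0.84), which stayed at 0.78 to 0.81. For Vip they were Pkp2 (r = 0.84), Calb1 (r = 0.81) and Camk1g (r = 0.79), with 0.53, 0.54 and 0.78 in the 18 libraries. For Sst they were Arpc1a, Cuta and Bad, for Npy Fth1, Naxd and Aldoc, and for Cck Pfn1, Sh3bgrl3 and Arpc2, with r of 0.88 to 0.93. For Gad2 they were Rhobtb3, Shisa6 and Fam171b (r of 0.86 to 0.87), and for Reln Cdh4, Shisa6 and Igsf3 (r of 0.89 to 0.93), so that Shisa6 stood in both lists.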

How the data were processed

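The authors trimmed reads with fastp 0.20.1, aligned them to mm10 (GRCm38) with HISAT2 2.2.1, used featureCounts (Subread 2.0) with GENCODE vM22 to count reads per gene and divided them by DESeq2 1.36.0 size factors. The deposited signal values are these normalized counts. Of the values, 100% lay within 0.01 reads of a whole multiple of the worth of 1 read, and whole reads were recovered from them. The tables of the authors' own fold changes and p-values were not used. Members and gene lists were chosen with earlier results of these data known. Groups came from the sample labels, 1 mouse per library. Replicates differed by more than sampling noise.

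The limma trend method (version 3.58.1, R 4.3.3) was applied to log2(normalized count + 1), with 24 libraries in 1 model and Benjamini-Hochberg adjustment over 14074 genes. Calls needed an adjusted p under 0.1. The changes of low genes are understated by the added count. Correlations used values centred on group means and 100000 two-sided permutations within groups, with adjustment over 45 pairs and 110 relations (the 10 members with summed markers of 10 cell types or tissues and with the balance of short and long transcripts). The balance is the median deviation of 226 short transcripts minus that of 2335 long ones, with a mean of at least 100. TPM and exon lengths used the GENCODE M21 annotation, which differs from the authors' release. Alternatives were quantile and TMM normalization, a pseudocount of 8, filters on low values, a fit of only the groups compared, library size as a covariate, edgeR 4.0.16, DESeq2 1.42.0 and leaving out each library. After the data were seen, a fit without the 6 olfactory bulb libraries and covariates for olfactory bulb markers and transcript length were added. Named were all members, up to 3 genes per list and comparison with the lowest adjusted p, the 3 genes most like each member, and a DEX target, besides cell type markers. Steps were tested on simulated data. Some results of the named lists are not reported here.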

Additional observations from a re-analysis of the deposited data

Results flagged for a closer look

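A value in a group of 4 was marked by its gap to the nearest other, as a share of the group's range. The mark needed a share above Dixon's 95% critical value, and 13 of 72 groups were marked. Chance marks about 1 in 20 independent groups. These groups were not independent, since the members share libraries and covary. They also include the olfactory bulb sums and the transcript balance, which were examined after the values had been seen. The count is therefore no test of an excess. Among the members, Gad1 was far above the others in control mouse 117 with saline (14206, nearest 7757) and in AS mouse 14 with saline (9223, nearest 7030). Slc32a1 was also high in AS mouse 14 (2737, nearest 2258). Pvalb was high (1673, nearest 972) and Reln low (1568, nearest 2585) in AS mouse 60 with DEX. Sst was high in control mouse 101 with DEX (4197, nearest 3292) and in AS mouse 44 with saline (4838, nearest 3659).

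The summed olfactory bulb markers were marked in control mouse 117 (5070), PS mouse 2 (1818), PS mouse 34 (4011), AS mouse 14 (1819) and AS mouse 38 (667). The balance of short and long transcripts was marked in control mouse 101 with DEX (0.15, nearest -0.20). No cause was tested for these values.

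The DEX response differed between AS and control animals by the interaction test for Syt2 (1.54 on the log2 scale, limma adjusted p = 0.0785) and Chgb (0.42, adjusted p = 0.0711). No member passed that test, and without the 6 olfactory bulb libraries Syt2 and Chgb did not pass it either.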

How the results depend on the processing

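No paired analysis was possible because no animal contributed more than 1 library and the groups share no animal numbers. The number of members called (main count first) changed beyond 1.5 times as follows. For PS against control with saline it was 1, became 2 when only the groups compared were fitted, 0 without the 6 olfactory bulb libraries and 3 (Vip, Npy and Sst) with transcript length as a covariate. For DEX in AS it was 2, became 0 with only the groups compared, with library size as a covariate and without the 6 libraries, and 1 with the olfactory bulb covariate. With transcript length as a covariate it went from 0 to 1 for DEX in PS, PS against control with DEX and the AS interaction, and from 1 to 6 for any difference among 6 groups. DESeq2 gave 1 for AS against control with DEX, where limma gave 0, and 3 for any difference. The causes were not tested.

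Leaving out each library in turn gave 0 to 1 called members for PS against control with saline, DEX in control, DEX in PS, AS against control with DEX and the AS interaction. It gave 0 to 2 for DEX in AS, 1 to 2 for DEX over the 3 phenotypes, 0 to 3 for any difference, and 6 to 12 correlated pairs against 8. The other 6 comparisons stayed at 0. A group that lost a library was assumed to vary like the others. Of 4670 recomputed member values, 36 lost and 12 gained a call, none reversed a call, and 193 uncalled ones changed sign. With 4 mice per group, small differences in members were not detectable.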
